A study of Mus musculus with 6 samples.

Results

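The 10 genes described here encode members of the BCL2 family: Bcl2, Bcl2l1, Bcl2l2, Mcl1, Bak1, Bcl2l11, Bad, Bid, Bmf and Hrk. They were taken as listed, out of 21938 protein-coding genes of the mouse annotation (GENCODE vM21 basic, build GRCm38), and the rule that lists them uses no measured value. H3K27ac, acetylation of histone H3 at lysine 27, a mark of active promoters and enhancers, had been profiled by ChIP-seq in bulk retina of WT mice that were 3 months old at the first pressure elevation. In the 3 samples of the 4xIOP group, the intraocular pressure (IOP) of 1 eye had been held at 30 mmHg for 1 h, and this was repeated biweekly, 4 times in all. The 3 control samples were contralateral eyes left without elevation, and the eyes of both groups were taken on day 2 from the 4th elevation. The contralateral eye belongs to a treated animal, so that effects shared by both eyes of a mouse are not seen in this comparison. A treatment text common to all samples also describes dasatinib or vehicle injection after IOP elevation, but no sample label assigns either to a sample. Nothing in the labels says whether lists came from separate animals, so that p-values measure the spread between these 6 lists.

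BCL2 family proteins decide whether the outer membrane of the mitochondrion is opened, the step that releases cytochrome c and starts the caspases. Survival members (Bcl2, Bcl2l1, Bcl2l2 and Mcl1) hold the pore formers Bak1 and Bax in check. The BH3-only members (Bcl2l11, Bad, Bid, Bmf and Hrk) sense stress and bind the survival members or activate the pore formers. The family is known in the retina for its part in the loss of ganglion cells after raised IOP and of photoreceptors in degeneration.

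Each sample was represented by 1 peak list, and 4 of the 6 lists carried the name of the other group: control replicates 1 and 2 carried a pressure name, and 4xIOP replicates 1 and 2 a control name. Groups were kept as labelled, and every direction below holds for the labels. The lists held 16195 to 36509 peaks that covered 6.66 to 20.1 Mb, and control replicate 3 had the most of both. The lowest pile-up called at a summit was 9 to 12 fragments, and the background was 87.4 to 173 fragments per 10000 bp. Of the markers of retinal cell types, the rod genes Nrl, Gnat1, Pde6b and Sag were marked at the promoter in all 6 lists. The 3 markers each of microglia, pigment epithelium, endothelium and lens had no promoter peak in any list, and neither had 3 of the 4 markers of retinal ganglion cells, while Rbpms was marked in 4xIOP replicates 1 and 3. In bulk retina, a change in the number of cells of a type cannot be told apart from a change of acetylation per cell.

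The sequences that the following results turn on are shown first, with CpG dinucleotides in capitals, because CpG content differed between promoters with and without the mark. Sequences were read from GRCm38, 5′ to 3′ on the strand of the gene. The 5 promoter windows are the 250 bp upstream of the transcription start site (TSS): Mcl1 (chr3:95658538-95658787, plus strand) and Bcl2l11 (chr2:128125788-128126037, plus strand) had the highest and the lowest level of the genes marked in every list, Bcl2 (chr1:106714275-106714524, minus strand) held the most GC boxes, and Bid (chr6:120916854-120917103, minus strand) and Hrk (chr5:118169498-118169747, plus strand) were marked in 1 list.
Mcl1: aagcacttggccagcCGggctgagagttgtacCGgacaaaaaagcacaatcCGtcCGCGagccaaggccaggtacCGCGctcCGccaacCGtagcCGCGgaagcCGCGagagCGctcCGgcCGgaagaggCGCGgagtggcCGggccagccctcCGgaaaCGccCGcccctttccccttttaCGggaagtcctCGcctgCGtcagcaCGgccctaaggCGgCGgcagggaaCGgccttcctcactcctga
Bcl2l11: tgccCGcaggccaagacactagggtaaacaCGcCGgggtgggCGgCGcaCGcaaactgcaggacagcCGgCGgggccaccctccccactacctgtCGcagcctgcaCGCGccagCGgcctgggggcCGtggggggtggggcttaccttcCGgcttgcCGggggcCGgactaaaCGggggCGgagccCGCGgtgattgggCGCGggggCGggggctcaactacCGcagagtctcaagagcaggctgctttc
Bcl2: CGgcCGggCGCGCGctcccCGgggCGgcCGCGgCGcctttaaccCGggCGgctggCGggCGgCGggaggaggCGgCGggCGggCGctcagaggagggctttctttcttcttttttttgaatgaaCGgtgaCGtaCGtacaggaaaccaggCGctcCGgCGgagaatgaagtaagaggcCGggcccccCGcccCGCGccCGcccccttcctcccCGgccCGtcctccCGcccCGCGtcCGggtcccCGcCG
Bid: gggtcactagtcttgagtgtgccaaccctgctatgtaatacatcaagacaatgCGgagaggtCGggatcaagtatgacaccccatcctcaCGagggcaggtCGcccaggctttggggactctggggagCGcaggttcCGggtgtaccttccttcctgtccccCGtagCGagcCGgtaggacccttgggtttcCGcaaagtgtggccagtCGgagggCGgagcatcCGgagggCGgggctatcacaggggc
Hrk: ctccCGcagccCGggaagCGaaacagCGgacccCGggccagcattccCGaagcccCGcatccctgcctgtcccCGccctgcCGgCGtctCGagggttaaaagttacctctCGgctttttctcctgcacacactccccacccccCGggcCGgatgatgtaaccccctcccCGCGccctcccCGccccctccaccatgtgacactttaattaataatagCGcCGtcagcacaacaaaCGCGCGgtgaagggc

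The next 4 sequences are the 300 bp around the summits of the regions outside promoters that were acetylated in all 6 lists. They lie in an intron of Bmf (chr2:118533461-118533760, minus strand), upstream of Bmf (chr2:118554304-118554603, minus strand), in an intron of Bcl2l1 (chr2:152804819-152805118, minus strand) and downstream of Bad (chr19:6951928-6952227, plus strand).
Bmf intron: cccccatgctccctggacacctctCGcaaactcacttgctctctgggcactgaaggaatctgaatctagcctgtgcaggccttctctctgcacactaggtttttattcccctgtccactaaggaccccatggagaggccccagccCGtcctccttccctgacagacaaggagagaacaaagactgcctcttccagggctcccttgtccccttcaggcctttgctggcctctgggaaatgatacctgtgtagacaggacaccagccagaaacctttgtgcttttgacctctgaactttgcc
Bmf upstream: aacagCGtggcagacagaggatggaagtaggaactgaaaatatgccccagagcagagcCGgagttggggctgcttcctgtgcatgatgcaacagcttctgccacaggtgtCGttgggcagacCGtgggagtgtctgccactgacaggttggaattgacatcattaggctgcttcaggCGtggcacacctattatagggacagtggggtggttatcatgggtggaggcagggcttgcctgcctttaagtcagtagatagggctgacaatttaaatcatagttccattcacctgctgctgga
Bcl2l1 intron: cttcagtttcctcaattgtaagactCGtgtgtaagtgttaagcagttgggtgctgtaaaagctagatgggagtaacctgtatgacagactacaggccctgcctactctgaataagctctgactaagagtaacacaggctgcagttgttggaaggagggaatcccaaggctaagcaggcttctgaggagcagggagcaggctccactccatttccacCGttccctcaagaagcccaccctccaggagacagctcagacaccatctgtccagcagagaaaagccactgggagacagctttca
Bad downstream: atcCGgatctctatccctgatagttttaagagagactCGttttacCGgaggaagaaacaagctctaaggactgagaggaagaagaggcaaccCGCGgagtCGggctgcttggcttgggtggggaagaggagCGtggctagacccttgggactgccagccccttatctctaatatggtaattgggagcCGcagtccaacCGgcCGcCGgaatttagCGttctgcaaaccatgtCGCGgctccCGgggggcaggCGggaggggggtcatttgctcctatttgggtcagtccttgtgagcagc

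A promoter was counted as marked when a peak overlapped the 2.5 kb on either side of any TSS of the gene. All 4 survival genes and the pore former Bak1 were marked in all 6 lists, and so were Bcl2l11 and Bad among the 5 BH3-only genes. These 7 of 10 genes compare with 39.5% of all protein-coding genes marked in all 6 lists. The other 3, Bid, Bmf and Hrk, were marked in 1 to 5 lists, as were 18.1% of all genes, and 0 of the 10 were marked in no list, against 42.4% of all genes. With the same number of top peaks taken from each list, Bid and Hrk were marked in 0 lists and Bmf in control replicates 1 and 2 only. Control replicates 1 to 3 marked 8, 8 and 10 family promoters, and 4xIOP replicates 1 to 3 marked 8, 7 and 7. The groups thus overlapped at 8, and the 2 genes that set control replicate 3 apart were Bid and Hrk. The share of all genes marked was also highest in that list, at 56.9%, against 44.6% to 48.6% in the other 5.

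**Figure D1:**
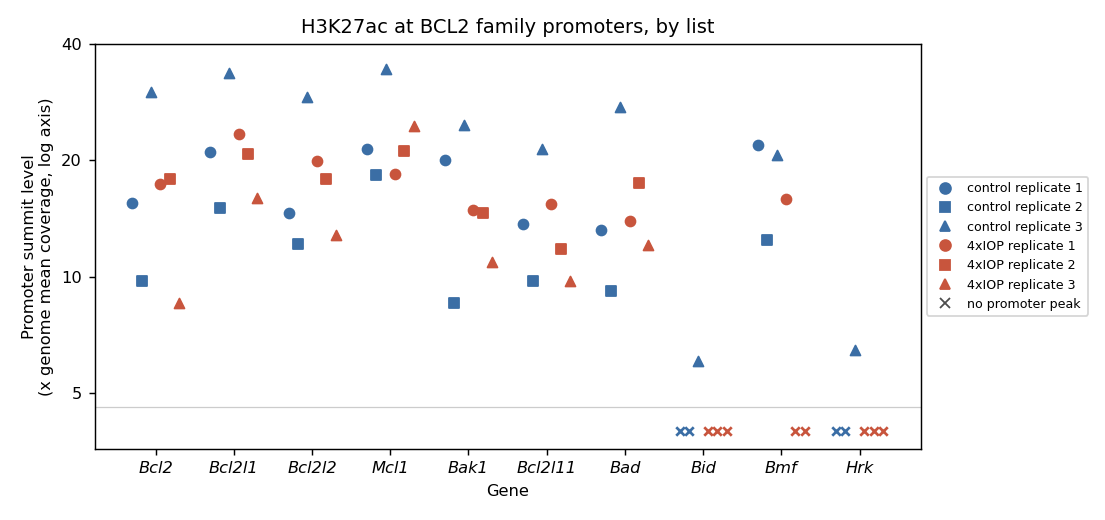
Summit level of the strongest promoter peak (log axis, in multiples of the genome mean coverage of the list) for the 10 genes in the 6 lists, with crosses for lists without a promoter peak. Values of control replicate 3 stand above those of the other lists at Bcl2, Bcl2l1, Bcl2l2, Mcl1, Bak1, Bcl2l11 and Bad, and Bid and Hrk have a value in that list alone.

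No family promoter was marked in each control list while lacking a peak throughout 4xIOP, a pattern of 79 genes or 0.36% of all genes. The opposite pattern, each 4xIOP list and no control, was shown by no family promoter and by no gene at all (0%). Bmf came nearest, with a promoter peak in the 3 control lists and in 4xIOP replicate 1, and it showed the first pattern when 4xIOP replicate 1 was left out. At the stricter threshold of −log10 q of at least 5, Bmf again was marked in control lists only, and Bcl2 lost its peak in 4xIOP replicate 3, which left 6 genes marked in all lists. Between the lists whose own name is that of the label (control replicate 3 and 4xIOP replicate 3), the counts were 10 and 7 genes, a comparison of 2 libraries with no test. These were the lists with the most and the fewest peaks, and they marked 56.9% and 44.6% of all genes.

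Levels are given as the fragment pile-up at the summit of the strongest promoter peak over the genome mean coverage of the list. This is a height per position and does not depend on gene length. Mcl1, a survival protein of short half-life, had the highest mean of the 7 genes marked in every list. Its level was 21.4, 18.3 and 34.4 in the control lists and 18.4, 21.2 and 24.6 in the 4xIOP lists, in the order of the replicate numbers here and below. The values of the groups overlapped, and control replicate 3 was the highest. Its peak held the start of the gene, with a summit 0.18 kb downstream of the TSS.

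Bcl2l1, which encodes BCL-XL, the main survival member of adult neurons, came second. The level was 21.0, 15.1 and 33.6 in the control lists and 23.4, 20.7 and 16.0 in the 4xIOP lists. Bcl2l2, encoding BCL-W, stood at 14.6, 12.1 and 29.2 in the control lists and 19.9, 17.9 and 12.9 in the 4xIOP lists. In both genes the 4xIOP values lay inside the range of the control values. The promoter window of Bcl2l2 was shared with the overlapping gene Gm20521, so that the same peak counted for both.

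Bcl2, the founding survival gene, had a level of 15.5, 9.76 and 30.0 in the control lists and 17.4, 17.9 and 8.57 in the 4xIOP lists. Bak1, the pore former, had 20.1, 8.58 and 24.7 in the control lists and 14.9, 14.6 and 10.9 in the 4xIOP lists. For Bcl2 the lowest value was in 4xIOP replicate 3 and for Bak1 in control replicate 2, and groups overlapped in both. The window of Bak1 was shared with Ggnbp1.

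Among the BH3-only genes, Bad, whose product binds BCL2 and BCL-XL, had a level of 13.2, 9.17 and 27.5 in the control lists and 13.9, 17.4 and 12.1 in the 4xIOP lists. Bcl2l11, which encodes BIM, had the lowest mean of the 7, with 13.7, 9.76 and 21.5 in the control lists and 15.4, 11.8 and 9.74 in the 4xIOP lists. Both overlapped between groups, and the promoter of Bad was shared with Gpr137, which starts on the opposite strand. The summit of Bcl2l11 lay 0.239 kb downstream of its TSS.

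The order of the geometric means over the 6 lists was Mcl1 (22.5), Bcl2l1 (20.9), Bcl2l2 (16.9), Bcl2 (15.2), Bak1 (14.7), Bad (14.6) and Bcl2l11 (13.1). Only the step from Bcl2l1 to Bcl2l2 was larger than its spread over lists, with a log2 difference of 0.30 ± 0.12 (SD, n = 6) and Bcl2l1 higher in 6 of 6 lists. The other neighbours did not differ beyond their spread. Between the ends, Mcl1 exceeded Bcl2l11 by 0.78 ± 0.36 on the log2 scale (SD, n = 6), in 6 of 6 lists. Among the 8669 genes marked in all lists, these levels ranged from percentile 84.9 for Mcl1 and 79.3 for Bcl2l1 down to 31.7 for Bcl2l11. The 4 survival genes came first in this order, but the step from Bcl2 to Bak1 was 0.04 ± 0.32 on the log2 scale (SD, n = 6), with Bcl2 higher in 4 of 6 lists.

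Bmf, whose product is released from the cytoskeleton when cells lose contact, had a high local background at its promoter. Its promoter summits held 48, 42 and 51 fragments in the control lists and 32 in 4xIOP replicate 1, levels of 21.9, 12.4, 20.7 and 15.9. These levels were within the range of the genes marked in all lists, yet no peak was called in 4xIOP replicates 2 and 3. The local background at the summit, the coverage of the surrounding sequence against which the peak was called, was 5.83, 4.23 and 6.50 times the genome mean in the control lists and 5.94 times in 4xIOP replicate 1. This put Bmf at percentile 88.7 to 94.2 of all marked genes of the list. The 7 genes marked in all lists had 1.67 to 5.17 times the genome mean, a range that overlaps that of Bmf, and reached percentile 91.7 for Mcl1 (in 4xIOP replicate 3) and 87.3 for Bcl2. Within each of the 4 lists that marked Bmf, its local background was the highest of the family. The fold enrichment of Bmf over that background was accordingly low, at percentile 33.2, 13.6 and 21.3 of all peaks in the control lists and 5.04 in 4xIOP replicate 1. The value of control replicate 3 came from a second peak at the upstream TSS of the gene, at −1.929 kb from the TSS used for the other lists, where this list held 43 fragments. Whether the high local background had a part in the absence of a call in these 4xIOP lists was not tested.

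**Figure D2:**
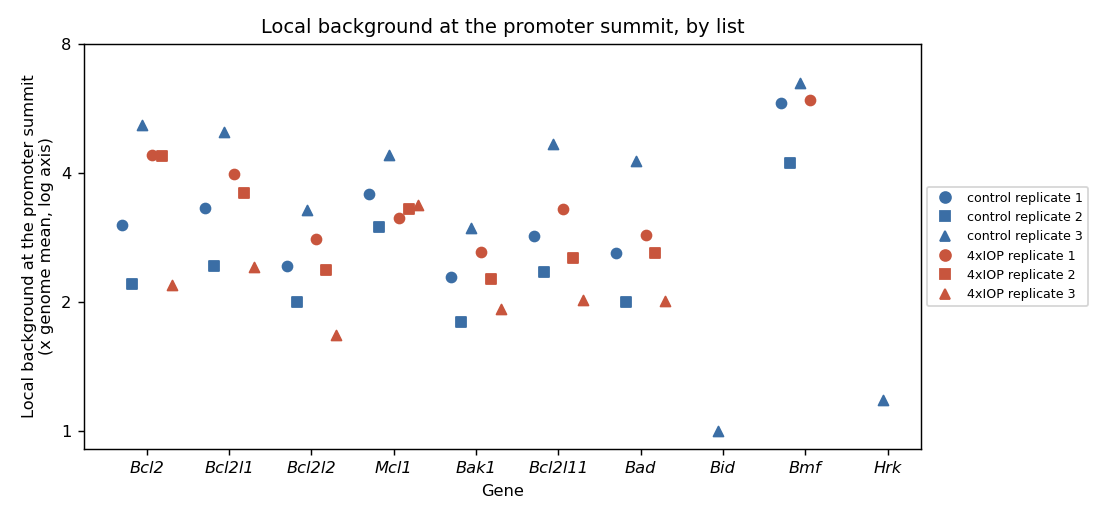
Local background at the summit of the strongest promoter peak (log axis, in multiples of the genome mean) for each gene in each list with a promoter peak. Bmf stands at 4.23 to 6.50 times the genome mean, and Bid and Hrk at 1.00 and 1.18 in control replicate 3.

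Bid, which links death receptors to mitochondria, and Hrk, a BH3-only gene of neurons, were marked in control replicate 3 alone. Their summits held 15 and 16 fragments, levels of 6.08 and 6.48, in a local background of 1.00 and 1.18 times the genome mean. The remaining 5 lists had no promoter peak at either gene. The lowest level called was 3.55 to 4.48 in the 6 lists. Levels ran high in control replicate 3, with a median log2 level of 4.85 over the genes marked in all lists, against 3.45 to 4.08 elsewhere. The 2 values therefore cannot be set against the lowest summits of the other 5 lists, and whether peaks of this size would be called there was not tested. The pattern was a common one, since 1147 genes or 5.23% of all genes were marked in control replicate 3 alone, and in the 4 lists that marked Bmf 96 genes or 0.438% were marked and no others.

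CpG content was compared over the 1000 bp around the TSS (for genes with several, the TSS of the highest ratio), as the observed count over that expected from base composition. The median ratio was 0.788 for genes marked in all lists, 0.662 for genes marked in 1 to 5 lists and 0.229 for genes marked in none. Mcl1 had the highest ratio of the family, 1.01, followed by Hrk with 0.937, Bcl2 with 0.870 and Bad with 0.845. Bcl2l11, Bcl2l1, Bid and Bmf lay between 0.724 and 0.779. Bcl2l2 and Bak1 were low, at 0.336 and 0.298, although both were marked in all 6 lists. Hrk thus had the second highest CpG ratio of the 10 with a peak in 1 list, and Bak1 the lowest with peaks in 6.

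The letters of 12 motifs were searched on both strands of the 250 bp upstream windows of the 10 genes, and no motif of the set contains another. The GC box bound by SP1 (GGGCGG) occurred in 7 of 10 windows against 42.1% of the 41525 windows upstream of annotated TSSs, and Bcl2 held 7 copies. The 3 windows without it, Bcl2l1, Bak1 and Bmf, overlapped annotated exons (250, 250 and 40 bp of the 250), while the other 7 held 0 bp of exon. The ETS core (CCGGAA) occurred in 4 of 10, Bcl2l2, Mcl1, Bcl2l11 and Bid, against 15.1%. The FOXO site (GTAAACA) occurred in Bcl2l11 alone, at positions 24 to 30 of the printed window, against 2.72% of all windows, and FOXO factors are known regulators of that gene. A CCAAT box was present in Bcl2l11 as well, against 33.9%. No window held the letters of the NRF1 and NF-kB sites or of the TATA box (TATAAA), AP-1 (TGANTCA), CRE (TGACGTCA), OTX/CRX (GGATTA), STAT (TTCNNNGAA) or the E-box (CACGTG), which occur in 0.376% to 10.8% of all windows. The shares over all windows include TSSs of genes without the mark, whose median CpG ratio was lower. Shares among marked promoters alone were not computed, so that an excess here is not shown to be a trait of the family. A match describes letters only, and these windows say nothing about binding.

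The difference between groups was fitted with limma over the 8669 genes marked in all lists, on log2 levels centred on the median of these genes in each list. None of the 7 family genes passed the adjusted threshold of 0.05, and neither did any gene (0% higher and 0% lower in 4xIOP). At an unadjusted p under 0.05 there were 0 of the 7 and 285 of all genes, or 3.29%. The estimates for the survival genes, 4xIOP minus control, were 0.21 ± 0.17 (log2, SE) for Bcl2l2, 0.11 ± 0.16 for Bcl2l1, 0.10 ± 0.22 for Mcl1 and 0.01 ± 0.19 for Bcl2. For the death genes they were 0.20 ± 0.18 for Bad, 0.04 ± 0.17 for Bcl2l11 and −0.01 ± 0.19 for Bak1. The adjusted p of limma was 0.998 for each, with n = 3 lists per group. The median of the 7 was 0.10, beside −0.01 over all genes tested, and the range of all genes from the 5th to the 95th percentile was −0.29 to 0.28. Signs followed the scaling: without centring, all 7 family estimates were negative and the mean of the list medians (log2 level over all genes) was lower in 4xIOP, with a difference of −0.27. Control replicate 3 had the highest list median, 4.85 against 3.45 to 4.08 in the other 5 lists, and without it the difference was 0.11. A miss of the threshold does not show equal levels.

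**Figure D3:**
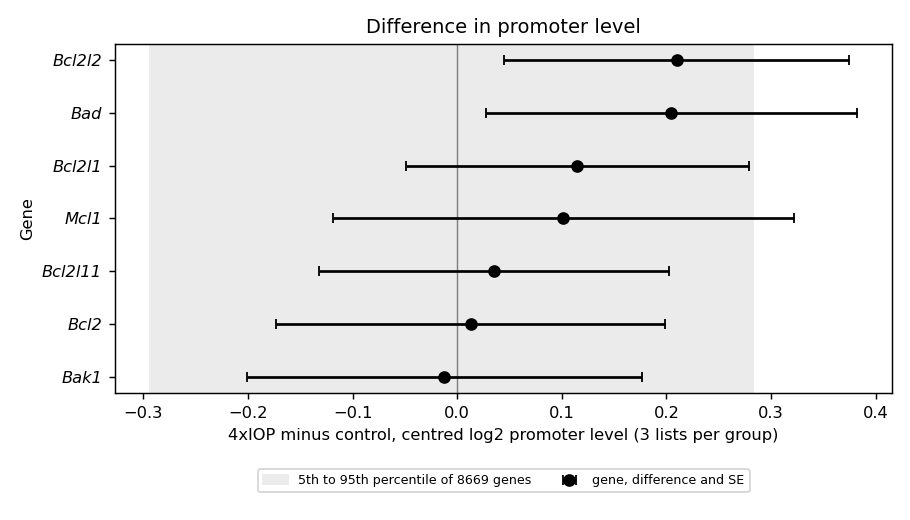
Difference in centred log2 promoter level, 4xIOP minus control, for the 7 genes marked in all lists (points, with the SE of limma as bars, 3 lists per group), over the 5th to 95th percentile range of all 8669 genes (grey). The 7 points lie between −0.01 and 0.21, inside the grey range.

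In centred level the groups did not overlap in 1 gene. The centred level of Bcl2l2 was 0.01 ± 0.14 in control and 0.22 ± 0.03 in 4xIOP (log2, SD, n = 3 each), with each 4xIOP list above each control list. Groups stood apart in this direction in 4.15% of all genes and in the other direction in 4.38%, and limma gave Bcl2l2 an unadjusted p of 0.219. In the deposited fold enrichment the groups stood apart in 1 of the 7, Bcl2, in the other direction. Its fold was 4.58, 4.01 and 5.45 in the control lists and 3.65, 3.78 and 3.46 in the 4xIOP lists, and 9.77% of all genes were lower in 4xIOP without overlap on this scale and 0.173% higher. Mcl1 had centred levels of 0.48 ± 0.25 for control and 0.58 ± 0.50 for 4xIOP (SD, n = 3 each), the widest spread of the 7 in 4xIOP, while Bak1 had the widest in control (SD 0.36). The estimate of Mcl1 was −0.13 without 4xIOP replicate 3 and −0.01 without control replicate 3. That of Bak1 turned to 0.21 without control replicate 1, and that of Bcl2 to −0.11 without 4xIOP replicate 2.

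The surroundings of the 10 genes, the gene body with 20 kb on either side, held 52 of 39942 consensus regions, in which overlapping peaks of the 6 lists were merged. In all 6 lists 16 of the 52 were called, against 26.4% of all regions, and in 1 list 24 of the 52, against 37.4% of all regions. Control replicate 3 alone accounted for 21 of these 24, and over the whole genome for 11412 of 14954. Of the 52, 20 lay at a promoter of the gene itself, 11 in its introns, 1 in an exon, 11 at promoters of other genes, 4 in introns of other genes and 5 between genes. The limma fit on rank scores of fold enrichment over 10529 regions shared by all lists called none of them (0% in either direction), with 334 at an unadjusted p under 0.05, or 3.17%. Of the 16 in these loci, 0 had an unadjusted p under 0.05, 7 were higher and 9 lower in 4xIOP, and the estimates ran from −0.63 to 0.51 normal-score units.

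The intron region of Bmf (chr2:118532531-118534284, summit 13.948 kb downstream of the TSS) was 1 of the 4 distal regions called in all lists. Among these it had the highest mean level over the lists, though not the highest level in 4xIOP replicate 3. It held 49, 43 and 68 fragments in the control lists and 44, 44 and 26 in the 4xIOP lists. In the 4 lists with a Bmf promoter peak, its level exceeded that of the promoter in 4 of 4, by 0.23 ± 0.23 on the log2 scale (SD, n = 4). The mean excess was no larger than its spread. In fragments it was 49 against 48, 43 against 42 and 68 against 51 in the control lists and 44 against 32 in 4xIOP replicate 1. Control replicates 1 and 2 thus hardly differed. The intron region was also called in 4xIOP replicates 2 and 3, where the promoter had no peak. The region upstream of Bmf (chr2:118553806-118554770, summit at −6.895 kb) held 39, 38 and 52 fragments in the control lists and 27, 32 and 23 in the 4xIOP lists. Each 4xIOP count was below each control count here, as in 26.4% of the 10529 regions shared by all lists, but levels relative to the genome mean overlapped, with 16.7 ± 5.00 in control and 12.5 ± 3.16 in 4xIOP (SD, n = 3 each).

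One more Bmf region, in an intron 6.399 kb downstream of the TSS (chr2:118540389-118541457), was called in control replicate 1 (37 fragments), control replicate 2 (40 fragments) and 4xIOP replicate 3 (26 fragments). These were the 3 lists that carry a pressure name, whatever their label. Over the genome 89 regions were called in exactly these 3 lists. The local background there was 5.58 and 3.74 times the genome mean in the control lists and 2.93 times in 4xIOP replicate 3. This region was named after its values were seen.

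**Figure D4:**
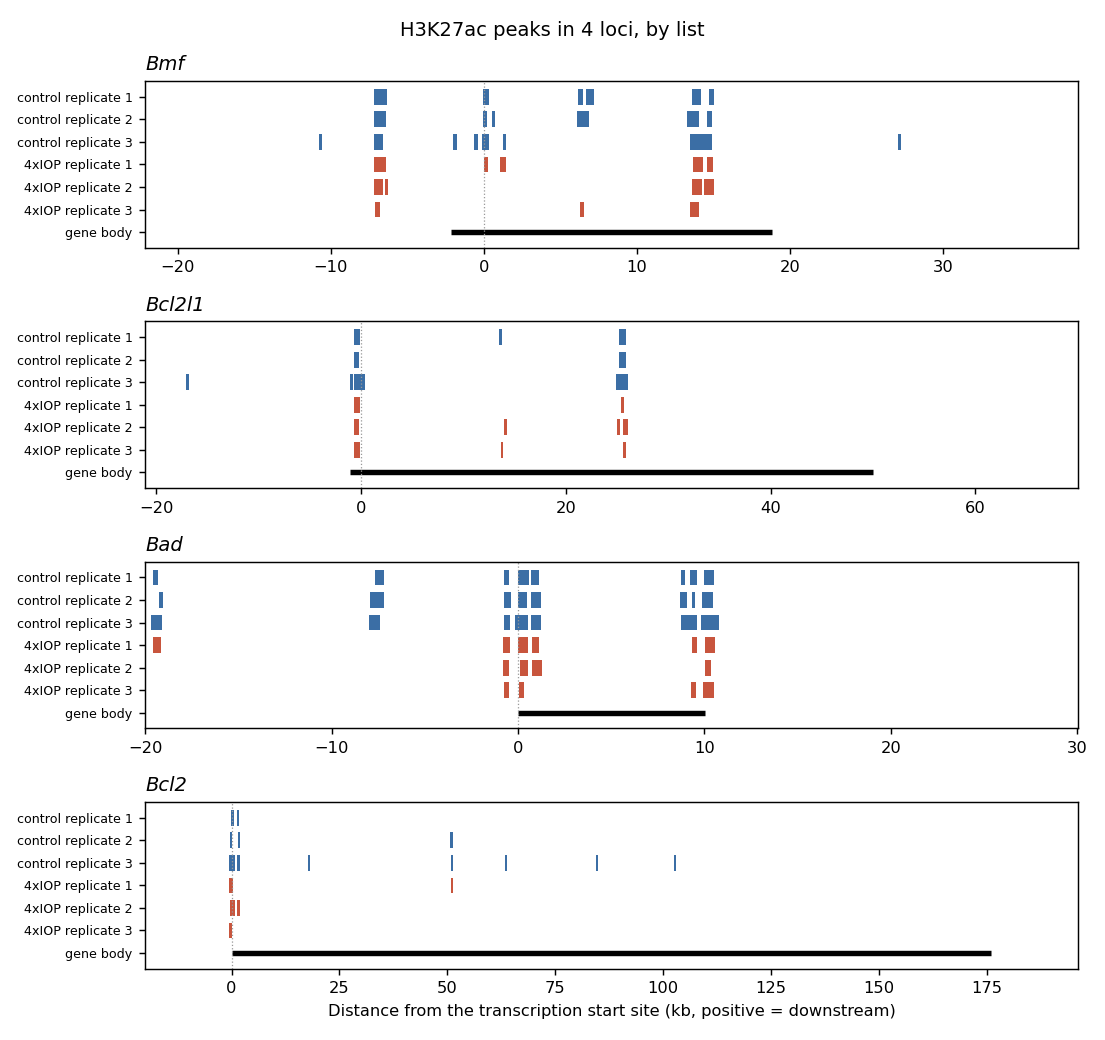
Peaks of the 6 lists along the loci of Bmf, Bcl2l1, Bad and Bcl2 (horizontal axis, distance from the TSS in kb, positive downstream; 1 line per list, control in blue and 4xIOP in red, gene body in black; the narrowest peaks are drawn wider than they are). Bmf has peaks at 13.948 and −6.895 kb in every list, Bcl2l1 at 25.697 kb and Bad at 10.217 kb.

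Bcl2l1 had 1 distal region in all lists, in an intron 25.697 kb downstream of the TSS (chr2:152804591-152805720). It held 25, 32 and 42 fragments in the control lists and 19, 32 and 28 in the 4xIOP lists, and the groups overlapped. Its mean level was 12.2 ± 3.12 over the 6 lists (SD), beside 21.6 ± 6.67 for the promoter region of the gene. Bad had 1 between genes (chr19:6951708-6952670, 10.217 kb downstream of its TSS), with 29, 29 and 51 fragments in the control lists and 25, 20 and 25 in the 4xIOP lists. Here too each 4xIOP count was below each control count, which made 2 of the 16 shared regions of these loci, and 0 of the 16 showed the reverse, seen in 0.019% of all shared regions, while the levels, 14.2 ± 6.09 in control and 10.5 ± 1.65 in 4xIOP (SD, n = 3 each), overlapped. Next to it, an exon region of Bad 9.335 kb from the TSS (chr19:6950572-6951483) was called in 5 lists, with 26, 29 and 53 fragments in control and 20 and 24 in 4xIOP replicates 1 and 3.

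Bcl2, the longest of the genes at 176 kb, had 5 of the 11 intron regions of the family. An intron region 50.971 kb into the gene (chr1:106662891-106663450) held 18 and 23 fragments in the control lists of replicate 2 and 3, held 21 in 4xIOP replicate 1, and was not called elsewhere, a pattern of 246 regions over the genome. It too was named after its values were seen. The other 4 intron regions were called in control replicate 3 alone. The locus of Mcl1 had 1 region besides its promoter, in control replicate 3, and Bid had 3, each in 1 list and each in an intron of Bcl2l13, a neighbouring family member. In the locus of Hrk, the promoter region of Fbxw8 was called in all 6 lists with 30, 21 and 60 fragments in control and 32, 20 and 22 in 4xIOP, while the Hrk promoter itself had a peak in 1.

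One region of the 52 had a peak in each control list and none under 4xIOP, a pattern of 1.05% of all regions. It was the promoter of Kcnk4, a potassium channel gene, with a summit at −7.544 kb from the TSS of Bad (chr19:6933842-6934680), and it held 22, 18 and 35 fragments. The opposite was seen in 0 of the 52, against 0.015% of all regions.

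The length under peaks per locus differed between the groups without overlap in 2 of the 10 loci, Bad and Bmf, both shorter in 4xIOP, as were 10.3% of 15583 protein-coding loci with a peak. In the locus of Bad it was 3112, 3504 and 4596 bp in the control lists and 2483, 1641 and 1422 bp in the 4xIOP lists. In that of Bmf it was 2964, 3142 and 3769 bp in control and 2430, 2164 and 1156 bp in 4xIOP. Each control value exceeded each 4xIOP value in these 2 loci, and no family locus showed the reverse, which was seen in 0.0449% of all loci. With 3 lists against 3, the smallest two-sided p of an exact permutation test is 0.1.

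Over the 10 loci the length was 15.1, 15.0 and 27.5 kb in the control lists and 14.8, 13.5 and 8.72 kb in the 4xIOP lists. The means were 19.2 ± 7.15 and 12.3 ± 3.19 kb (SD, n = 3 each), a difference of −6.88 kb, of which −2.75 kb remained without control replicate 3. The order of the lists followed in part that of the covered length of the whole list, which was longest in control replicate 3 and shortest in 4xIOP replicate 3. As a share of the whole list the loci took 0.148% ± 0.0177 in control and 0.136% ± 0.00821 in 4xIOP (SD, n = 3 each), and these values overlapped.

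**Figure D5:**
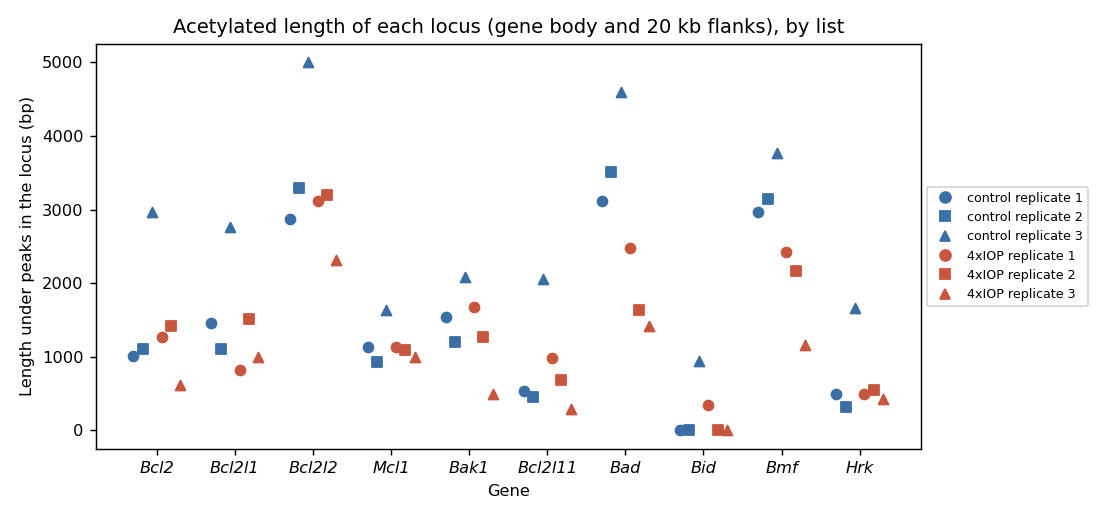
Length under peaks (bp) in each locus, gene body with 20 kb on either side, in the 6 lists. Bad and Bmf are the loci in which the 3 control values all lie above the 3 4xIOP values, and control replicate 3 is the highest list in each locus.

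Genes whose centred promoter level moved most like that of a family member over the 6 lists were named by the highest Pearson correlation among 8668 genes. For Bcl2l2, Bak1 and Bad it was the gene sharing the promoter peak. Outside these, Enc1 was nearest to Bcl2 (r = 0.999), Zhx2 to Bcl2l1 (r = 0.986), Mta1 to Bcl2l11 (r = 0.997) and 4930453N24Rik to Mcl1 (r = 0.989). These are descriptions over 6 points from the same libraries, and 11 to 28 genes reached 0.95 for Bcl2, Bcl2l1, Bcl2l11 and Mcl1.

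Of 45 further genes of the apoptosis pathway, 19 were marked at the promoter in all 6 lists, 16 in none and 10 in some, beside 39.5%, 42.4% and 18.1% of all genes. Of 15 other BCL2 relatives, 3 were marked in all lists, the mitophagy receptors Bnip3 and Bnip3l and Bcl2l13. Bax, the partner of Bak1, was marked in 5 lists, as were 4.79% of all genes. Of the 6 pathway genes with this count, Bax, Bok, Bcl2l12 and Xiap lacked a peak in 1 4xIOP list and Fadd and Casp6 in 1 control list. The BH3-only genes Bbc3 and Bik were marked in 1 list each and Pmaip1 in none. Of 13 apoptosome and mitochondrial genes, 10 were marked in all lists, among them Apaf1, Cycs and Casp9. Of 10 genes of the death receptor arm, Cflar and Ripk1 were marked in all lists, and 7, Fas, Fasl and Casp8 included, in none. Differences between these lists were not tested. Of 7 inhibitors of apoptosis, 4 were marked in all lists: Birc2, Birc3, Birc5 and Birc6. None of the 45 was marked in all lists of 1 group and in no list of the other.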

How the data were processed

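H3K27ac ChIP-seq of 6 mouse retina samples (3 control, 3 4xIOP, grouped by the labels) was analysed from 1 deposited narrowPeak list per sample. The authors' processing notes name MACS2, STAR 2.7.8a, HOMER, edgeR, bedtools 2.29.2 and mm10 (GRCm38) with no role for each, so the aligner and the settings of the peak caller for these lists are not given in the sources used here. The deposited values are the fold enrichment at the summit (a ratio of pile-up to local background) and its −log10 p-value with the −log10 q-value, both from the authors' peak caller. The lowest −log10 q of a list was 1.31 to 1.40. The deposited summit offset was used for positions, and the integer score was not used.

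Fold and p together fix the whole number of fragments at the summit and the local background (Poisson tail, pseudocount of 1). The fold is then matched by construction, and the deposited −log10 p was reproduced within 0.001 for at least 99.99% of peaks per list. Level is fragments over the lowest local background of the list, taken as the genome mean. The recovery assumes the usual MACS2 formulas. Errors are the SD over lists or the SE of limma.

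Promoters were windows of 2.5 kb to each side of a TSS, loci the gene bodies with 20 kb flanks, and an overlap of 1 bp sufficed. Distances were taken from the TSS nearest to the summits, moved to the 5′-most TSS within 100 bp. Group differences were tested with limma 3.58.1 (R 4.3.3, empirical Bayes, Benjamini-Hochberg over all genes or regions, threshold 0.05). The fit was tried on simulated data with added changes larger than any family estimate, so that its power at the observed sizes was not examined. The labels do not say which lists share an animal, and lists were fitted as unpaired. Correlations of deviations between same-numbered lists were −0.06, 0.02 and −0.02 for promoter levels and −0.02, −0.06 and −0.15 for rank scores. Between lists of other numbers they were −0.11 to 0.16 for promoter levels and −0.16 to 0.18 for rank scores. These values cannot show whether lists are paired, under these or other numbers. The rule for the genes uses no measured value, but the genes and gene lists were chosen with earlier results of these data known. Named by rule were all 10 genes, distal regions in at least 4 lists or exclusive to a group, and the most similar gene, with 2 further regions chosen after their values were seen. The promoter region of Fbxw8 in the locus of Hrk was also named outside these rules. Sequences came from the GRCm38 genome (Python 3.11.15, pysam 0.24.0).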

Additional observations from a re-analysis of the deposited data

How the results depend on the processing

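Under all alternatives run, limma called 0 genes and 0 regions in either direction, with 6 to 628 genes and 251 to 701 regions at an unadjusted p under 0.05. The count of genes marked in all lists stayed at 6 or 7. Genes marked in all control lists and no 4xIOP list numbered 1 (Bmf) at −log10 q of at least 5, 0 to 1 when a list was left out and 3 with only the 2 lists whose own name is that of the label, where the difference in marked genes was −3. Those 2 lists had the most and the fewest peaks and marked 56.9% and 44.6% of all genes. The share of all genes marked in the first and not in the second was not computed. Covered length of the loci, −8.96 to −2.75 kb when a list was left out, became −0.0128 percentage points as a share of the list, a smaller relative difference.

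Without centring, promoter estimates (log2, 4xIOP minus control) turned negative: Bcl2 −0.25, Bcl2l1 −0.15, Bcl2l2 −0.058, Mcl1 −0.17, Bcl2l11 −0.23 and Bad −0.063. The estimate of Bcl2 was −0.19 with the deposited fold and −0.080 with fragment-length class (shortest peak over or under 200 bp) as a term, and that of Bak1 was 0.0030 with promoters of 1 kb; the cause was not tested. With a list left out, estimates ranged from −0.11 to 0.23 for Bcl2, −0.13 to 0.35 for Mcl1, −0.13 to 0.21 for Bak1, −0.041 to 0.11 for Bcl2l11, 0.12 (without 4xIOP replicate 2) to 0.37 (without 4xIOP replicate 1) for Bad, 0.047 (without control replicate 3) to 0.18 for Bcl2l1 and 0.15 to 0.30 for Bcl2l2. With the replicate number as a block, 0 genes and 0 regions were called (286 genes at an unadjusted p under 0.05). Each replicate number occurs once per group, so that this block cannot change the estimates, only their SE. For Bcl2l2 the result was 0.21 ± 0.17 (SE). The alternative with the summit inside the promoter was chosen after seeing the data for promoter levels. At the strict threshold Bcl2 had no estimate, as it was not marked in all lists. Depth, 9 to 12 fragments at the lowest summit called, limits what an absent peak can show.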
